A study of Mus musculus with 6 samples.

Results

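The platelet-derived growth factor (PDGF) ligands and receptors were followed in hypoxic cardiomyocyte cultures treated with β-sitosterol. The 6 members are the genes of the deposited table named Pdgfa, Pdgfb, Pdgfc, Pdgfd, Pdgfra and Pdgfrb, out of 57010 genes listed, and all 6 were among the 14799 genes that passed the filter on low counts. The study asked how β-sitosterol (β-SITO), a plant sterol, changes transcription in primary neonatal mouse cardiomyocytes (NMCMs) under hypoxia (HO). RNA-seq was available for 6 libraries, 3 of the HO + Vehicle group (V1, V2 and V3) and 3 of the HO + β-SITO group (T4, T5 and T6), and no library of normoxic cells was analysed here. All cells shared the same source, newborn C57BL/6 mice, from whose digested hearts the cells that did not adhere in a preplating step were kept as NMCMs. The dose of β-SITO and the hours of hypoxia behind these libraries are not given in the sources used here, and nothing states that the libraries came from separate cultures, so p-values measure only the spread between these libraries.

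PDGFs are dimeric growth factors that act on mesenchymal cells. PDGF-A and PDGF-B are cut inside the cell by furin-like proteases, whereas PDGF-C and PDGF-D are secreted with a CUB domain that an extracellular protease must remove. The receptors are class III receptor tyrosine kinases: PDGFRα binds PDGF-A, PDGF-B and PDGF-C, and PDGFRβ binds PDGF-B and PDGF-D. In the heart Pdgfra is typical of fibroblasts and Pdgfrb of pericytes and other mural cells, and endothelial Pdgfb is known for recruiting pericytes to capillaries.

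A vehicle library held 16694734 to 17082129 counts and a β-SITO library 16962152 to 18460522. Over all genes tested, 66.8% passed at an adjusted p under 0.05 (edgeR's quasi-likelihood test, Benjamini-Hochberg adjustment), with 33% higher in the β-SITO libraries. Differentially expressed genes (DEGs), which had also to change by more than 2-fold, made up 22.8% of genes tested, with 12.8% higher, and 70.5% of genes had no overlap between vehicle and β-SITO libraries. The genes that passed were 4885 higher and 5007 lower after TMM normalization, against 6175 higher and 3816 lower when libraries were scaled by size only. Of 12 cardiomyocyte markers, 12 were detected, with a summed level of 6574 to 7683 CPM (counts scaled to a common library size) in the vehicle libraries. However, 12 fibroblast markers summed to 29702 to 30872 CPM in the same libraries, led by the collagen genes Col3a1 and Col1a1, so markers of both cell types were present. Every marker of the other cell types listed, even of Schwann cells, had counts as well, so detection alone does not test the cardiomyocyte label. In bulk RNA, a change in the number of cells of a type and a change in RNA per cell cannot be told apart. Library names of the HO + β-SITO group carry a suffix that those of the other group lack, so that treatment and any separate preparation cannot be told apart.

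Of the 6 PDGF genes, 4 rose, 1 fell and 1 did not pass the test. Pdgfb rose most, by 4.55-fold, Pdgfd and Pdgfc rose by about as much as the 2-fold criterion, Pdgfrb rose by 1.54-fold and Pdgfa fell slightly. The 5 of 6 that passed stand beside 66.8% of all genes tested and the 4 of 6 that rose beside 33%. The 3 DEGs, all higher, stand beside 22.8% in either direction and 12.8% higher, and the 5 of 6 without overlap beside 70.5%. The median log2 fold change of the members was 0.83, against -0.01 over all genes tested.

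**Figure D1:**
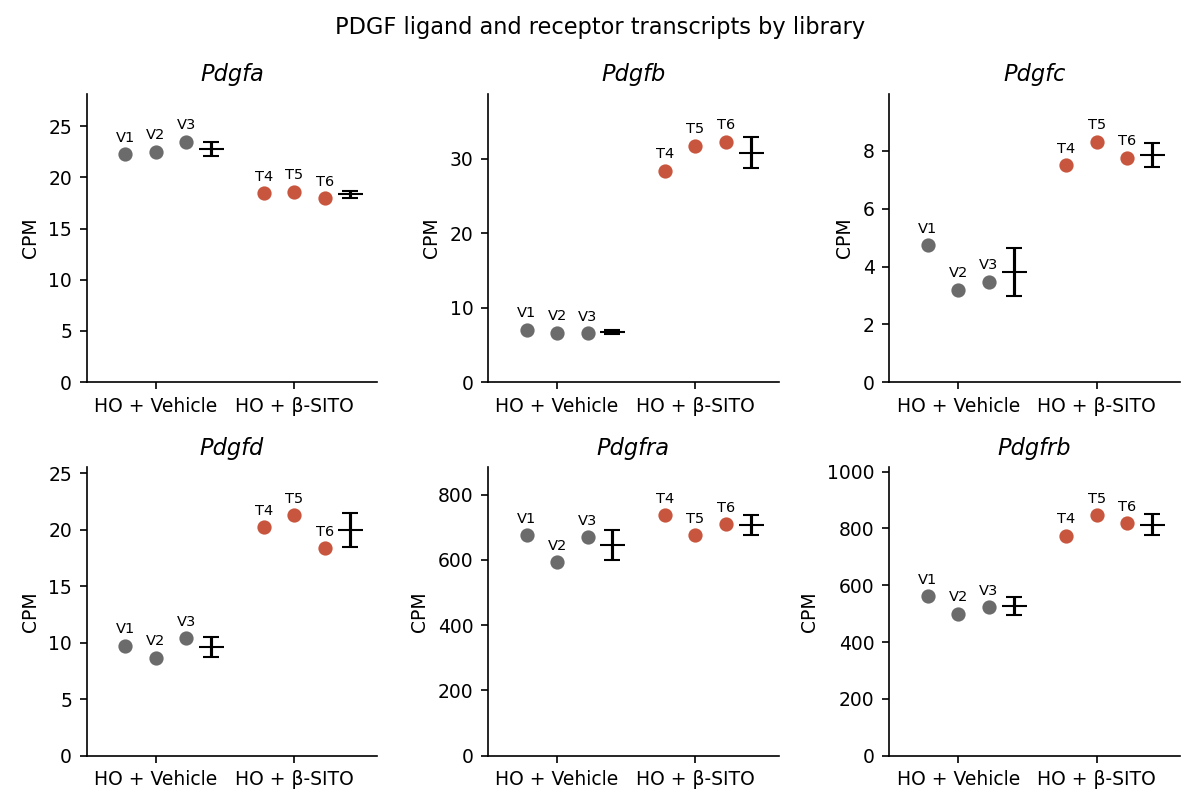
CPM after TMM normalization (vertical axes, each starting at 0) of the 6 PDGF genes, with 1 point per library and the mean ± SD of the 3 libraries of a group as a bar to the right. The libraries of the groups overlap for Pdgfra only; Pdgfb moves furthest, from about 7 to about 31 CPM.

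Among the ligands, Pdgfb (ENSMUSG00000000489) encodes the B chain, which can signal through both receptors. In the deposited table, made on GRCm39, it lies on the minus strand of chromosome 15 from 79880075 to 79899178. The vehicle libraries held 112, 106 and 106 counts of it in V1, V2 and V3, and the β-SITO libraries held 553, 565 and 621 in T4, T5 and T6. Every β-SITO library was therefore well above every vehicle library, with little spread in either group. The mean was 6.76 ± 0.272 CPM with vehicle and 30.8 ± 2.11 CPM with β-SITO (SD, n = 3). On the log2 scale this was an increase of 2.19 ± 0.10 (SE; edgeR, adjusted p = 1.48e-11), and it stayed between 2.16 and 2.24 whichever library was left out. Since 3 libraries against 3 cannot give an exact permutation p below 0.1, and this gene gave 0.1, the test across genes carries the call.

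Pdgfd (ENSMUSG00000032006), a ligand of PDGFRβ, lies on the plus strand of chromosome 9 from 6168584 to 6378850. It had 9.73, 8.65 and 10.4 CPM in the vehicle libraries and 20.2, 21.3 and 18.4 CPM in the β-SITO libraries, without overlap. The log2 fold change was 1.06 ± 0.10 (SE; edgeR, adjusted p = 2.07e-07). Pdgfc (ENSMUSG00000028019), a ligand of PDGFRα that lies on the plus strand of chromosome 3 from 80943723 to 81121347, was the lowest of the 6 genes, with 75, 51 and 56 counts in the vehicle libraries against 146, 148 and 149 in the β-SITO libraries. V1 was the highest of the vehicle libraries and still well under T4, the lowest of the others. Its log2 fold change was 1.05 ± 0.16 (SE; edgeR, adjusted p = 2.96e-05). For both genes the increase was past the test with every library left out in turn, but the size lay at the 2-fold line: without V2 the log2 fold changes were 0.99 for Pdgfd and 0.94 for Pdgfc, and neither was a DEG. Tested against a 2-fold change with glmTreat, neither passed (adjusted p = 0.583 for Pdgfd and 0.795 for Pdgfc), and Pdgfb was then the 1 member that did.

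Pdgfa (ENSMUSG00000025856), which encodes the A chain, lies on the minus strand of chromosome 5 from 138961769 to 138983125. Its counts were much alike in all libraries, at 352, 359 and 379 in the vehicle group and 359, 331 and 345 in the β-SITO group. After TMM normalization they came to 22.2, 22.5 and 23.5 CPM against 18.4, 18.6 and 18.0 CPM, so the groups no longer overlapped and Pdgfa fell by 0.31 on the log2 scale (SE 0.08; edgeR, adjusted p = 0.00246). This call depended on the scaling: with library size only the log2 fold change was -0.16 and did not pass (adjusted p = 0.0776), while that scaling moved the median of all genes from -0.01 to 0.14. A noncoding gene, 6330403L08Rik, overlaps Pdgfa on the opposite strand and had 188 to 291 counts per library. Whether the counting used strand is not given in the sources used here, so reads of these genes may not have been told apart.

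**Figure D2:**
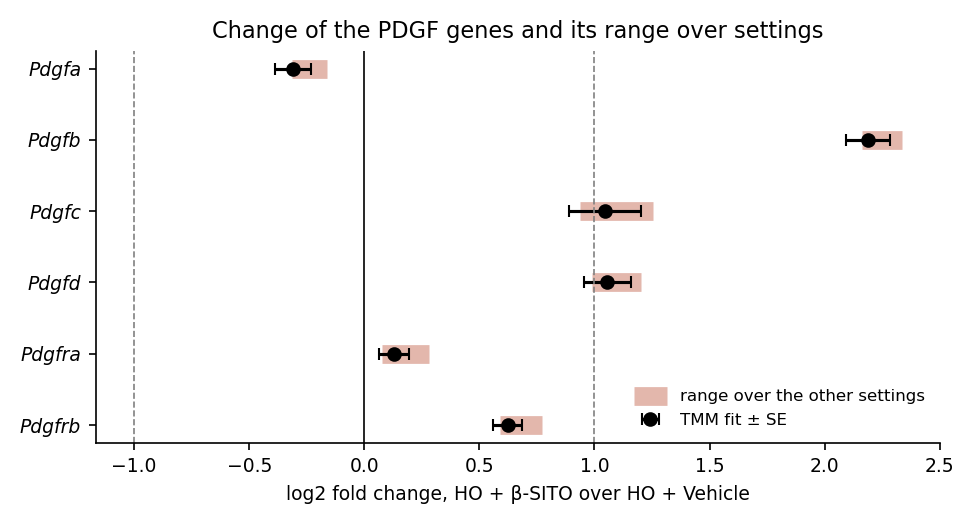
Log2 fold change of HO + β-SITO over HO + Vehicle (horizontal axis) for each PDGF gene; black points and bars are the TMM fit ± SE, pale bars the range over the other settings, left-out libraries included, and dashed lines mark a 2-fold change. The pale bars of Pdgfc and Pdgfd cross the 2-fold line, that of Pdgfb stays beyond it, and Pdgfa, below 0 in every setting, did not pass with library size only or upper quartile scaling.

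Sequence upstream of the start site was at hand for 4 of the members, Pdgfa, Pdgfc, Pdgfd and Pdgfra (RefSeq, GRCm38.p6, a build other than that of the counts). The 250 bases before a start are shown for the ligands Pdgfc and Pdgfd, which rose by nearly the same factor, and for Pdgfa, which did not rise, to let their composition be compared. Capitals mark matches, on either strand, to the GC box (GGGCGG), the TATA box (TATAAA), the CCAAT box (CCAAT), the core bound by RBPJ (TGGGAA), the hypoxia response core (ACGTG) and a κB core (GGGANTTTC). The window of Pdgfc is chr3:81036166-81036415 on the plus strand, that of Pdgfd chr9:6168236-6168485 on the plus strand, and that of Pdgfa chr5:138994945-138995194 on the minus strand. For Pdgfa this is 1 of 2 windows in the table, the one farther upstream.
Pdgfc: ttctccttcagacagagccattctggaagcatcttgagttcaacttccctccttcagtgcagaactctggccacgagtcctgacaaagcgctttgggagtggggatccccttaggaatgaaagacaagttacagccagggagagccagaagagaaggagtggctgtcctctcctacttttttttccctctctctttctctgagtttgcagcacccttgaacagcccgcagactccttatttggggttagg
Pdgfd: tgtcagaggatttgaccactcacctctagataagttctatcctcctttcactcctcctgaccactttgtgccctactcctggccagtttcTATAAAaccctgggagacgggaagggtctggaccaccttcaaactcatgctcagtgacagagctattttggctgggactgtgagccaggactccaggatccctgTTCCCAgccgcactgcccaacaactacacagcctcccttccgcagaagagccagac
Pdgfa: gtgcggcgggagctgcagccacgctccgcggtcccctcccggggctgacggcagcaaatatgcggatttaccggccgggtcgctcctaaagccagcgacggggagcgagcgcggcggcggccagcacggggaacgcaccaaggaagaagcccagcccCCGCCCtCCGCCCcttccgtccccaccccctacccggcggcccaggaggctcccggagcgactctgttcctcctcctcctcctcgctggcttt
The windows of the pair that rose together shared none of these words. That of Pdgfc, with 50.8% G and C, held no match, and that of Pdgfd, with 53.6%, held 1 TATA box and 1 RBPJ core, read as TTCCCA on this strand. The Pdgfa window shown had 72.4% G and C and 2 GC boxes. The other Pdgfa window, chr5:138994282-138994531, had 66.4% G and C, 1 GC box and 1 RBPJ core, the latter a word it shares with the Pdgfd window. Among the 32851 windows of the same length in the table, 32.7% held a GC box, 12.4% a TATA box, 33.8% a CCAAT box, 21.6% an RBPJ core, 16.6% a hypoxia response core and 0.941% the κB core. A match of letters describes the window and is no sign of binding.

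The mixture of ligand transcripts differed between the groups. Per length of the gene's exons, Pdgfa made up 55.5%, 59.2% and 57.5% of the 4 ligands in V1, V2 and V3, and 28.7%, 27.1% and 27.6% in T4, T5 and T6. Pdgfb had 12.8% ± 0.646 in the vehicle and 35.0% ± 2.08 in the β-SITO libraries (SD, n = 3), which made it the ligand with the largest share there. The share of Pdgfd was 23.9% ± 1.35 against 29.9% ± 1.75 (SD, n = 3). For these 3 ligands the shares did not overlap between the groups (two-sided exact permutation p = 0.1 each, as low as this design goes). Pdgfc had 5.87% ± 1.19 against 7.29% ± 0.146 (SD, n = 3), with V1 and T4 crossing (two-sided exact permutation p = 0.2). The 4 shares of a library sum to a whole and so are not independent of each other, but they do not depend on the scaling between libraries.

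**Figure D3:**
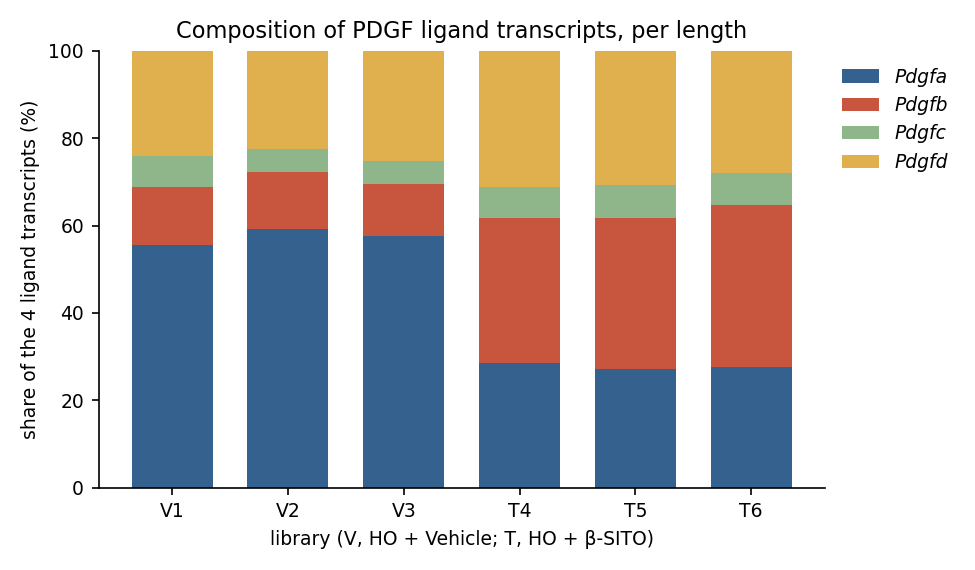
Share of each PDGF ligand (vertical axis, percent) in the summed length-scaled counts of the 4 ligand genes, 1 bar per library. Pdgfa holds over 55% of each vehicle bar and under 29% of each β-SITO bar, and Pdgfb 12.1% to 13.2% against 33.1% to 37.2%.

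The receptors were far more abundant than the ligands. Pdgfrb (ENSMUSG00000024620), on the plus strand of chromosome 18 from 61178222 to 61218133, had 8897, 7982 and 8427 counts in the vehicle libraries and 15072, 15070 and 15730 in the β-SITO libraries. In CPM these were 562, 500 and 522 against 775, 847 and 819, with no overlap. The log2 fold change was 0.62 ± 0.06 (SE; edgeR, adjusted p = 3.93e-07), an increase that did not reach 2-fold in any setting tried. Pdgfra (ENSMUSG00000029231) lies on the plus strand of chromosome 5 from 75312953 to 75358876 and had 676.2, 593.2 and 669.2 CPM in the vehicle against 737.4, 675.5 and 709.7 CPM in the β-SITO libraries. V1 lay just above T5, so the groups overlapped, and the log2 fold change of 0.13 ± 0.07 (SE) did not pass (edgeR, adjusted p = 0.0901). It passed with library size only (0.28, adjusted p = 0.00132), without V1 (0.19, adjusted p = 0.0317) and without T5 (0.19, adjusted p = 0.0423).

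Within a library, the ratio of Pdgfrb to Pdgfra per length was 1.52, 1.54 and 1.43 in V1, V2 and V3, and 1.92, 2.29 and 2.11 in T4, T5 and T6. All 3 β-SITO libraries thus had the higher ratio, by 0.49 on the log2 scale, which does not depend on normalization (two-sided exact permutation p = 0.1). The level of the ratio does rest on the exon length used: in raw counts it was 0.818 ± 0.0334 against 1.15 ± 0.102 (SD, n = 3), so that Pdgfra had the more counts of the receptors in the vehicle group and Pdgfrb in the other. The summed ligands came to 7.91% ± 0.308 of the summed receptors per length in the vehicle libraries and 9.66% ± 0.219 in the β-SITO libraries (SD, n = 3).

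Levels of different genes were compared in RPKM, the CPM per kilobase of exon. In the vehicle group the order was Pdgfrb (96.4 ± 5.70), Pdgfra (64.5 ± 4.59), Pdgfa (7.29 ± 0.212), Pdgfd (3.04 ± 0.282), Pdgfb (1.63 ± 0.0654) and Pdgfc (0.747 ± 0.161; SD, n = 3), and no neighbours in this order overlapped. In the β-SITO group it was Pdgfrb (148 ± 6.67), Pdgfra (70.6 ± 3.09), Pdgfb (7.41 ± 0.507), Pdgfd (6.33 ± 0.470), Pdgfa (5.88 ± 0.108) and Pdgfc (1.54 ± 0.0821; SD, n = 3). Here Pdgfd and Pdgfa overlapped, and the lowest library of Pdgfb (6.83) lay just above the highest of Pdgfd (6.75). Pdgfb thus moved from the fifth place to the third. Over all 6 libraries the mean RPKM of Pdgfrb and Pdgfra was higher than that of 97.6% and 95.2% of genes tested, that of Pdgfa higher than 58.2%, and that of Pdgfc higher than 20.3%.

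Markers of several cell types moved too, and which cells of these cultures carried the PDGF genes was not tested. The counts of markers that rose or fell stand beside all genes tested, of which 66.8% passed and 33% passed as higher. Of 12 endothelial markers, 11 rose and 1, the VEGF receptor gene Flt1, fell. Their summed level was 707 to 829 CPM in the vehicle and 1019 to 1075 CPM in the β-SITO libraries, and 229 to 263 against 922 to 961 CPM without Flt1, the marker with the most CPM in the vehicle libraries (533 CPM, against 78.4 for Cdh5) but not in the β-SITO libraries (104 against 281 CPM). Cdh5, which encodes VE-cadherin, rose by 1.84 and Vwf, which encodes von Willebrand factor, by 4.09 on the log2 scale. In percent of the 11 markers other than Flt1 in the same library, Pdgfb was at 2.82 ± 0.113 in the vehicle and 3.27 ± 0.172 in the β-SITO group (SD, n = 3), a much smaller difference than in CPM, though still without overlap (two-sided exact permutation p = 0.1). With Flt1 included these percentages were 0.877 ± 0.0550 and 2.95 ± 0.154 (SD, n = 3). The part of these cells in the increase of Pdgfb was not tested.

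Of the 11 pericyte and smooth muscle markers that could be tested, all rose, with a median log2 fold change of 1.57. Their summed level was 710 to 788 CPM against 1474 to 1746 CPM. Acta2, which encodes smooth muscle α-actin, had the most CPM, and Notch3, a Notch receptor of mural cells, rose by 1.59 on the log2 scale. Pdgfrb rose less than the median of these markers, and in percent of their sum it was at 71.0 ± 2.83 in the vehicle and 50.1 ± 2.91 in the β-SITO group (SD, n = 3). Acta2 held 562 of the 745 CPM of the mean vehicle sum. Without Acta2, Pdgfrb was at 291 ± 24.0 against 160 ± 15.7 percent (SD, n = 3). The groups did not overlap in either version. Of 12 fibroblast markers, 10 rose and 2, Dcn (-0.52) and Postn (-0.22), fell, with a median of 0.78. Their sums were 29702 to 30872 against 44733 to 45906 CPM. Most of the vehicle mean of 30254 CPM came from Col3a1 (10421.5), Col1a1 (9100) and Col1a2 (6800). Percentages of this list, with or without Col3a1, therefore compare mainly with collagen transcripts. In percent of the sum of all 12 markers, Pdgfrb was at 1.75 ± 0.0691 against 1.79 ± 0.0804, with overlap (two-sided exact permutation p = 0.5). Pdgfra was at 2.13 ± 0.120 against 1.56 ± 0.0770 (SD, n = 3), without overlap. Without Col3a1, the marker with the most CPM (per length, Col1a1 was higher in the vehicle group), Pdgfrb was at 2.66 ± 0.0932 against 3.06 ± 0.138 (SD, n = 3) and no longer overlapped. Of the remaining ligands, Pdgfd was at 1.29 ± 0.154 percent of the summed mural markers against 1.24 ± 0.165 percent (SD, n = 3), with overlap (two-sided exact permutation p = 0.8). Without Acta2 these were 5.30 ± 0.711 and 3.94 ± 0.657 percent (SD, n = 3), lower on average in the β-SITO group and again with overlap (two-sided exact permutation p = 0.2). As a percentage of the 11 endothelial markers other than Flt1, Pdgfd was at 4.01 ± 0.475 against 2.12 ± 0.151 (SD, n = 3), lower in all β-SITO libraries. Pdgfc was at 0.0125 ± 0.00246 percent of the fibroblast markers against 0.0173 ± 0.000832 percent (SD, n = 3), without overlap. The part of any cell type in these values was not tested.

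**Figure D4:**
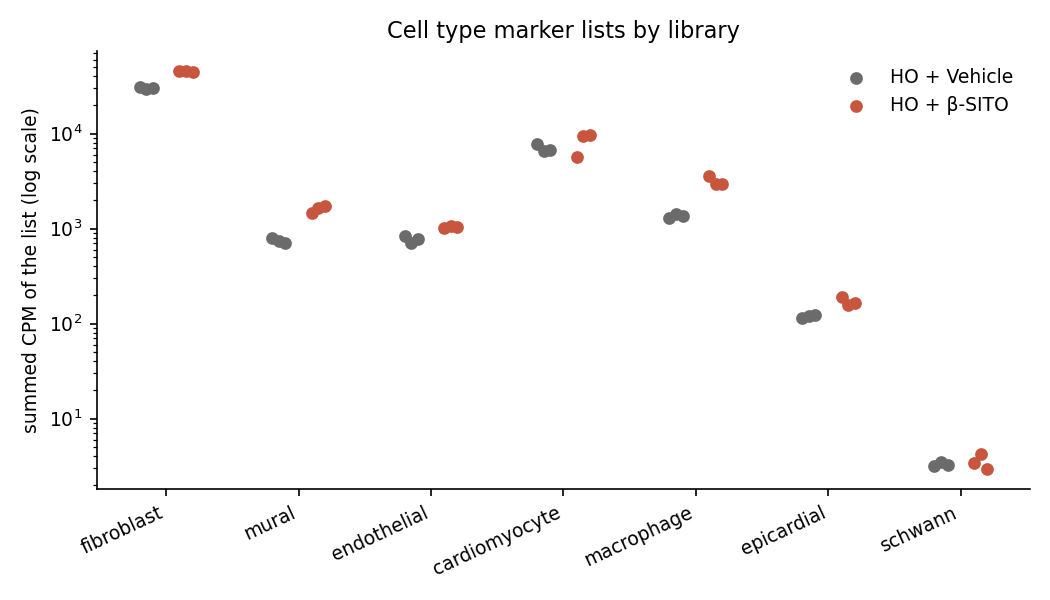
Summed CPM of each cell type marker list (vertical axis, log scale), 1 point per library. The β-SITO libraries lie above all vehicle libraries for fibroblast, mural, endothelial, macrophage and epicardial markers, and the groups overlap for Schwann cell markers. For cardiomyocyte markers T4 lies below all vehicle libraries and T5 and T6 above them.

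The members were not set against the other marker lists, and the part of those cell types in the PDGF values was not tested. Macrophage markers, of which 9 of 12 rose and 1 fell, summed to 1306 to 1429 against 2940 to 3611 CPM. Lyz2 had the most CPM and Mrc1 rose by 4.79 on the log2 scale. The 1 that fell was Fcgr1, by 2.18, and Adgre1 and Ptprc did not pass (edgeR, adjusted p = 0.471 and 0.813). Epicardial markers rose in 6 of 7 cases, with sums of 115 to 122 against 158 to 192 CPM and an increase of 1.39 for Upk1b. Cardiomyocyte markers passed as higher in 3 and as lower in 2 of 12 cases. Their sum was 5611 CPM in T4, under every vehicle library (6574 to 7683 CPM), but 9533 in T5 and 9604 in T6, above them all. T4 also differed more from T5 and T6 over all genes (chi-square of 8.69 and 9.20 per degree of freedom) than T5 from T6 (1.96). Schwann cell markers were near 0, at 2.97 to 4.27 CPM in sum over all libraries.

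Around the receptors, genes of the pathway were read from lists written by hand. Beside their counts stand all genes tested, of which 66.8% passed and 33% passed as higher. The share that passed was 69.2% of the RAS-MAPK and AKT kinases, near that of all genes, and 75% of the adaptors and enzymes. It was 88.2% of the negative regulators, 91.7% of the early targets and 100% of the proteases and of the co-receptors and binding proteins. The order depended on the scaling: with library size only, 87.5% of the adaptors and enzymes passed and 76.5% of the negative regulators, beside 67.5% of all genes. Of the 7 proteases known to cleave PDGF precursors, 4 rose and 3 fell. Plau, which encodes urokinase, an activator of PDGF-D, was at 15.3 ± 0.617 CPM with vehicle and 109 ± 4.41 CPM with β-SITO (SD, n = 3) and rose by 2.83 on the log2 scale (edgeR, adjusted p = 1.5e-14). The convertase genes Pcsk6 (log2 fold change 1.79) and Pcsk5 (1.04) rose, whereas Furin (-0.48) and Pcsk7 (-0.50), convertases as well, fell. St14, which encodes matriptase, another activator of PDGF-D, fell by 1.76 on the log2 scale, and Plat, the tissue plasminogen activator that cleaves PDGF-C, rose by 0.16. All 5 co-receptors and PDGF-binding proteins rose, with a median of 0.83. Nrp1, which encodes neuropilin, rose from 62.0 ± 3.41 to 127 ± 4.11 CPM (SD, n = 3), and A2m, which encodes a PDGF-binding protease inhibitor of plasma, rose by 2.32 on the log2 scale. Sparc, a matrix protein that binds PDGF-B, had the highest RPKM of them and rose by 0.56, and Lrp1, an endocytic co-receptor of PDGFRβ, rose by 0.53.

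The proteins that dock on the activated receptors went both ways. Of 24 adaptors and enzymes tested, 9 rose and 9 fell, with a median of 0.05 (13 rose and 8 fell with library size only, median 0.20). Src, the kinase, fell by 1.18 and Fyn, of the same kinase family, rose by 1.09 on the log2 scale. Plcg1, which encodes phospholipase Cγ, rose by 1.08, Gab1, a docking protein, by 1.05 and Grb10, an adaptor, by 0.95. The RAS-MAPK and AKT kinases had 4 genes that rose and 5 that fell of 13, with a median of 0.01 (6 rose and 3 fell with library size only, median 0.16). The sign of that median turned when V2 or T4 was left out, to -0.06 and -0.01. Map2k1, the kinase MEK that phosphorylates ERK, was at 260 ± 9.39 CPM with vehicle and 83.1 ± 0.885 CPM with β-SITO (SD, n = 3) and fell by 1.65 on the log2 scale (edgeR, adjusted p = 8.6e-13). Mapk3, which encodes an ERK, rose by 0.87 on the log2 scale.

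Of the 17 negative regulators, 5 rose and 10 fell, with a median of -0.31 (5 rose and 8 fell with library size only, median -0.17). Genes of phosphatases were among those that fell: the β-SITO level was 0.353 of the vehicle level for Ptpn2, 0.486 for Ptpn1 and 0.490 for Ptprj. Spred1, an inhibitor of RAS signaling, fell by 1.41. Spry1, which encodes the inhibitor Sprouty, went the other way, with 30.9 ± 2.50 CPM against 146 ± 1.75 CPM (SD, n = 3) and an increase of 2.23 on the log2 scale (edgeR, adjusted p = 1.73e-13). The others that rose were Dusp6, also a phosphatase gene (0.62), Sh2b3 (0.52), Spry2 (0.40) and Cbl (0.24).

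The 12 genes known as early targets of PDGF in fibroblasts did not move as one. Of these, 4 rose and 7 fell, with a median of -1.05 (the same counts with library size only, median -0.90). The largest decrease on this list was that of the chemokine gene Ccl2, with 2804 ± 297 CPM against 19.7 ± 4.44 CPM (SD, n = 3), or -7.15 on the log2 scale (edgeR, adjusted p = 1.1e-15). Cxcl1, another chemokine gene and one that the study picked from these libraries, was at -5.87. Has2, a hyaluronan synthase, was at -4.01 and Ier3, an early response gene, at -2.06. Fos and Egr1, transcription factors induced within minutes of PDGF, rose by 1.51 and 0.87. Other transcription factor genes of the list fell, namely Junb (-1.63), Myc (-0.47) and Fosl1 (-2.44, with 3 to 31 counts per library). Klf10 (0.30) and Srf (0.29) rose, and Plaur did not pass. Ccl2 and Cxcl1 are known as inflammatory chemokines as well as PDGF targets.

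**Figure D5:**
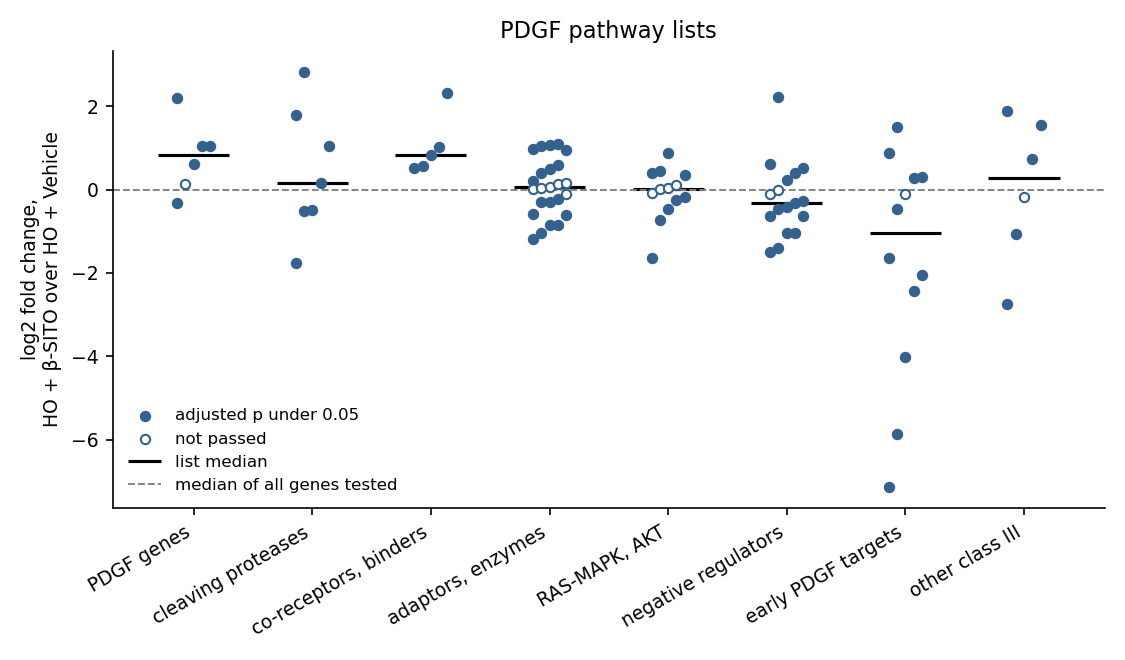
Log2 fold change of HO + β-SITO over HO + Vehicle (vertical axis) for every tested gene of the PDGF genes and 7 lists around them, filled where the adjusted p was under 0.05; black lines are list medians and the dashed line the median of all genes tested. Co-receptors and binding proteins lie all above 0, the signaling lists lie on both sides, and the early target list reaches down to -7.15; with library size only the points shift up by about 0.15.

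The genes whose profiles over the 6 libraries came nearest to each member, by Euclidean distance between centred log2 CPM among 9423 protein-coding candidates (9424 for Pdgfc, itself under the level set for candidates), were as follows. For Pdgfb they were Prag1 (distance 0.07), Pth1r (0.15) and Gsn (0.16), and for Pdgfrb Creb3l2 (0.06), Gtf2ird1 (0.07) and Ltbp3 (0.07). Syne2, Nfatc1 and Dennd5b came nearest to Pdgfd and Hip1, Dysf and Wdr6 to Pdgfc, with distances of 0.13 to 0.18. For Pdgfa they were Mrps34, Hinfp and Cd320, and for Pdgfra Nfx1, Thrap3 and Abcd3. With 2 groups of libraries, a small distance says mainly that the fold changes were alike.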

How the data were processed

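RNA-seq reads of 6 libraries were paired-end. The submitters' processing notes name FastQC, HISAT2, featureCounts and GRCm39, and versions, counting options and strand are not given in the sources used here. For the library kit the study names ABclonal and the labels Illumina. The authors deposited raw counts per gene, without normalization, and used DESeq2 themselves.

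From these counts, R 4.3.3 with edgeR 4.0.16 (filterByExpr, TMM, quasi-likelihood test, group as only term) gave fold changes, Benjamini-Hochberg adjusted p over all 14799 genes tested and CPM. DEGs followed the study's criterion of an adjusted p under 0.05 and a change of more than 2-fold. The script was checked on simulated data. limma 3.58.1, DESeq2 1.42.0, other scalings and filters, and each library left out in turn were alternatives. Exon lengths came from GENCODE vM21, matched by identifier for 14640 of the tested genes and for all 163 list genes, and were used only to compare levels between genes. Replicates differed by more than sampling noise (chi-square of 1.96 to 9.20 per degree of freedom).

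The members and lists were chosen with earlier results of these data known. Named genes are the members, the most abundant gene of a list and up to 4 with the largest change among those that passed, averaged at least 100 counts and did not overlap. In marker lists they are the 2 most abundant and the 2 most changed. Furin, Plat, St14, Lrp1, Ptprj, Fos and Egr1 were named after their values were seen. So were Junb, Myc, Fosl1, Klf10, Srf, Plaur, Fcgr1, Adgre1, Ptprc, Dusp6, Sh2b3, Cbl, Dcn, Postn and Col1a2. The comparison of members with marker sums was also added after values were seen. Values in percent of a marker list used raw counts.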

Additional observations from a re-analysis of the deposited data

How the results depend on the processing

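Directions of the 6 log2 fold changes were the same under all 14 alternatives. With library size only or upper quartile scaling, Pdgfa (-0.16 and -0.17, adjusted p = 0.0776 and 0.0698) no longer passed and Pdgfra (0.28 and 0.27, adjusted p = 0.00132 and 0.00143) did, as those scalings moved the median of all genes to 0.14. With glmTreat, which tests against 2-fold, 1 of the 6 members passed in place of 3 DEGs, and Pdgfa (-0.31), Pdgfc (1.05), Pdgfd (1.06) and Pdgfrb (0.62) did not. Without the fold-change criterion 5 members passed. The pathway lists and the list of other class III receptor kinases and their ligands together held 84 tested genes. Of these, 70 passed (83.3%, against 66.8% of all genes tested) in place of 28 DEGs (33.3%, against 22.8%). With each library left out in turn, 1 to 3 members were DEGs, the 1 being without V2, and the log2 fold change of Pdgfra was between 0.0761 and 0.193 (lowest without V2). On raw counts the share of Pdgfb among the ligands differed by 24.3 and that of Pdgfd by 3.6 percentage points. No paired analysis was possible because the groups share no replicate number. Pdgfc, with 51 to 149 counts per library, had the widest error of the members.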

Other observations

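The other class III receptor tyrosine kinases and their ligands are relatives of the PDGF system. Of 6 tested genes on this list, 3 rose and 2 fell, 5 of 6 beside the 66.8% of all genes tested that passed. Their median log2 fold change was 0.28, against -0.01 over all genes tested, but it was 0.42 with library size only and -0.16 with no filter on low counts, which added Flt3, a gene with 1 count in V2, 1 in V3 and 0 in the others. Csf1, which encodes the growth factor of macrophages, had 1761 ± 29.5 CPM with vehicle and 263 ± 20.2 CPM with β-SITO (SD, n = 3) and fell by 2.74 on the log2 scale (edgeR, adjusted p = 1.73e-14). Its receptor gene Csf1r had 75.4 ± 3.07 against 219 ± 17.2 CPM (SD, n = 3) and rose by 1.54 (edgeR, adjusted p = 1.62e-11). Kit, the receptor of stem cell factor, rose by 1.89 and its ligand gene Kitl by 0.72 on the log2 scale. Csf1r is also a macrophage marker, and macrophage markers rose in 9 of 12 cases. The part of these cells in the Csf1r values was not tested.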
